A study of Mus musculus with 10 samples.

Results

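Genes that bring pyruvate into mitochondria and run the citric acid cycle were examined in messenger RNA of peritoneal lavage cells, which are mostly leukocytes rinsed from the abdomen. They are 31 genes, chosen by symbol from the 34745 genes of the deposited table, and they cover pyruvate import, the pyruvate dehydrogenase complex and its phosphatases, pyruvate carboxylation, enzymes of the cycle, malic enzyme, and the export of citrate. The samples are primary cells from mice with cecal ligation and puncture, an operation that lets gut bacteria into the abdomen and causes sepsis. The 10 libraries fall into 5 labelled AX and 5 labelled NC. AX is taken here to mean amlexanox, an inhibitor of the kinases TBK1 and IKK-epsilon, and NC its vehicle, because the study compares these; the labels spell out neither abbreviation. Both groups therefore share the operation, and no group without sepsis was analysed here. The sources used here give no strain, sex, age, dose or time of lavage. Nor do they say that each library came from its own animal, so the p-values refer to the spread among these 10 samples, which may be technical.

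Pyruvate made by glycolysis enters mitochondria through the carrier formed by MPC1 and MPC2. The pyruvate dehydrogenase complex turns it into acetyl-CoA, or pyruvate carboxylase turns it into oxaloacetate. Citrate synthase joins these products, and the cycle then oxidises citrate back to oxaloacetate while it feeds electrons to the respiratory chain. In macrophages the cycle is also known as a source of signals: citrate leaves for lipid synthesis, aconitate is diverted to itaconate, and succinate builds up after bacterial stimulation. Neutrophils are known for few mitochondria and a reliance on glycolysis.

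Total counts per library ran from 10221170 to 13806885 (AX against NC, exact permutation, two-sided p = 0.587, n = 5 each). Levels are given as CPM, the count of a gene scaled to the total count of its library. The labelled cell type was checked with marker lists. All 16 neutrophil markers and 10 monocyte or small macrophage markers had counts, with summed levels of 10919.8 to 21621 CPM over the NC and 7945 to 17773 CPM over the AX libraries, and of 1917 to 4863 CPM over the NC and 1236 to 4556 CPM over the AX libraries. Other cells were also present, and unevenly. The 10 mesothelial markers summed to 2358 CPM for AX 6, 1229 CPM for NC 1 and 114 to 386 CPM elsewhere. The 9 gut epithelial markers summed to 1129.8 CPM for NC 1, 503 CPM for AX 6 and 434 CPM for NC 4, against 16.8 to 120.4 CPM in the other 7 libraries. The 10 stromal markers summed to 234 to 1407 CPM over the NC and 337 to 2670.2 CPM over the AX libraries, again with AX 6 and NC 1 highest, and the 11 of large peritoneal macrophages to 66.6 to 194 CPM over the NC and 79.2 to 345 CPM over the AX libraries. No marker was at 0 in all 10 libraries. Fitted values were higher in AX for 9 of 9 tested mesothelial, 10 of 10 stromal and 7 of 8 large peritoneal macrophage markers. Lower in AX were 9 of 9 gut epithelial and 12 of 16 neutrophil markers, beside 46.4% of all genes tested, and none passed with edgeR. These counts use all 10 libraries and were not repeated without single ones. The mesothelial sums of the AX libraries other than AX 6 lay below that of NC 1. AX 9 held the highest sum for large peritoneal macrophages, at 345 CPM. The part of these cell types in the results below was not tested. AX 6 and NC 1 stand apart, and the group results are given below also without both. In such mixed samples, fewer cells of a type and less RNA per cell cannot be told apart.

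No gene of the group passed the threshold between AX and NC. Of the 31 genes, 30 passed the filter on low counts, and 0 of these 30 had an adjusted p under 0.05 with edgeR, where 0% of all 12264 genes tested did. DESeq2 also called 0 members and called 1 gene of the table, 0.00511% of those it tested; at an unadjusted p under 0.05 it had 1 member, Idh2, and 1.21% of all genes. At an unadjusted p under 0.05 there was 1 member, Idh2, where 0.921% of all genes tested lay under that level (113 genes). The fitted value, after the TMM scaling of edgeR for library composition, was lower in AX for 23 of 30 members and higher for 7, beside 46.4% of all genes lower. The median log2 fold change of the members was -0.067, beside 0.021 over all genes tested. With scaling to total counts alone, 25 of 30 members and 56.8% of all genes were lower; on the authors' FPKM, on the log2(FPKM + 1) scale, these were 25 of 28 and 63.6%. The FPKM are also scaled to total counts, but that fit used another filter and model. With limma-voom, which kept the filter and TMM scaling of the main fit, 25 of 30 members and 50.5% of all genes were lower. The split of all genes therefore depended on the scaling and also on the model. Without AX 6 and NC 1 together, 24 of 30 members were lower, with a median of -0.081 and 0 called. The groups overlapped in CPM for every one of the 30, where they were apart for 0.0978% of all genes tested. The summed level of the 31 genes was 1788 ± 109 CPM in AX and 1951 ± 189 CPM in NC (SD, n = 5 each).

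**Figure D1:**
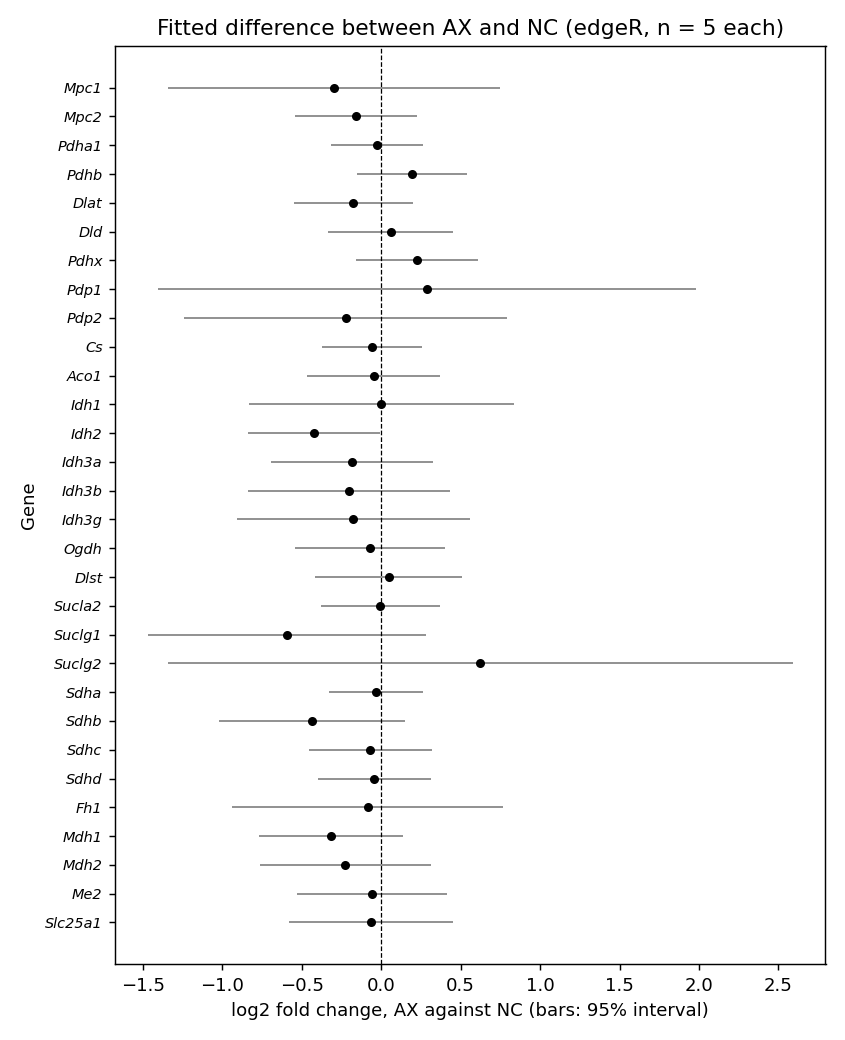
Fitted log2 fold change of AX against NC for the 30 tested genes, in order of role from pyruvate import to citrate export. Points are edgeR estimates and bars their 95% intervals (n = 5 libraries each); the interval of Idh2 ends just below 0 and that of each other gene spans 0.

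For 24 of the 30 genes the 95% interval lay wholly within a 2-fold change in either direction. Changes that lie inside an interval are not excluded. The share of all genes tested with such an interval was not computed. The standard error of the log2 fold change had a median of 0.21 for the members and 0.32 for all genes tested. Between libraries the members had a median coefficient of variation (SD over mean of CPM) of 22.8%, beside 34.6% over all genes tested. It ran from 10.7% for Pdha1 to 99.5% for Suclg2, and 10 of the 30 lay above the value for all genes. The genes tested were not matched to the members for level. Whether the members were steadier than other genes of like level was not tested. Sdhb, Mdh1, Mdh2 and the Idh3 genes moved over a 2.37- to 3.39-fold range, while Pdha1, Sucla2, Sdhd and Cs stayed within 1.596-fold. The median range was 2.22-fold for the members and 3.20-fold for the genes tested that had counts in every library.

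**Figure D2:**
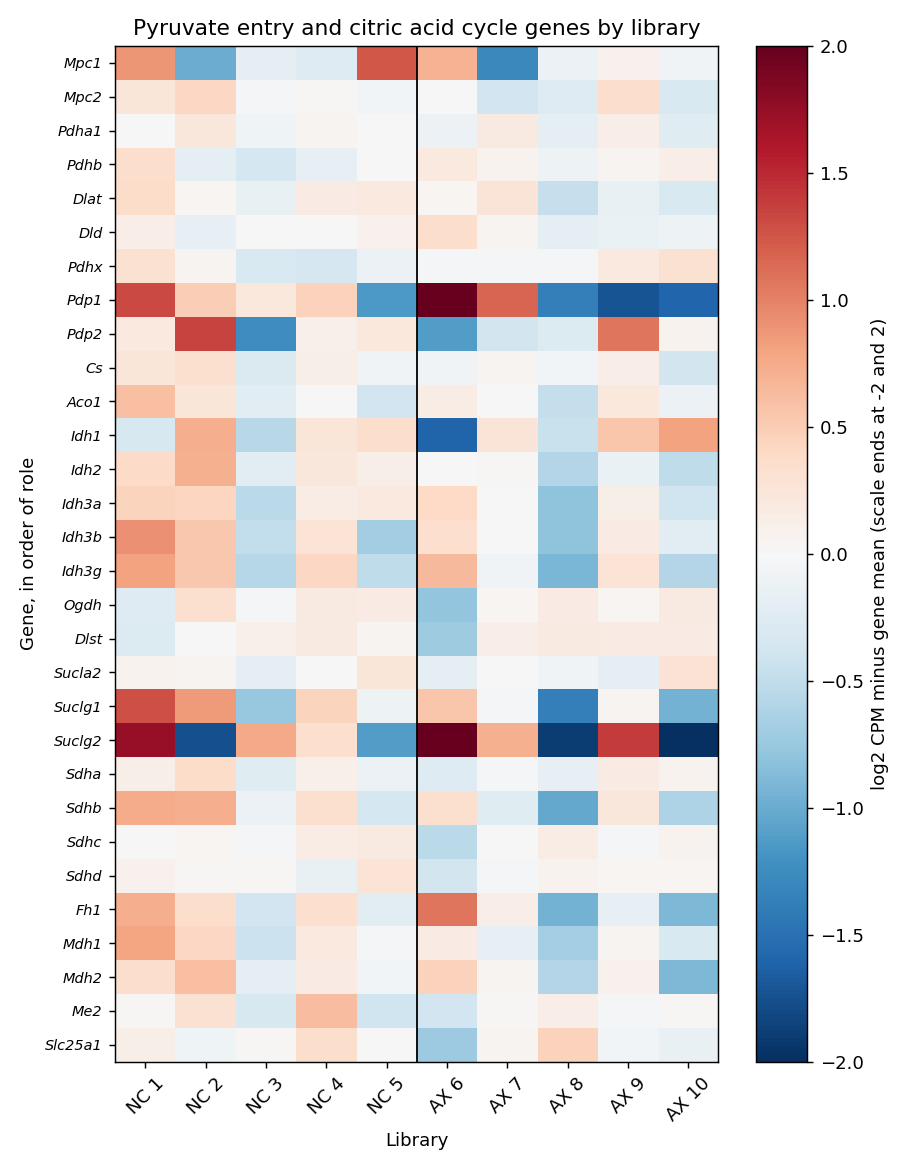
Level of each tested gene in each library, as log2 CPM minus the gene's mean over the 10 libraries; rows run from pyruvate import to citrate export, and the line divides NC from AX. Suclg2 and Pdp1 swing most, and the rows from Idh2 to Mdh2 contain genes that are low in AX 8 and AX 10 next to genes such as Ogdh, Dlst, Sdhc and Sdhd that are low in AX 6.

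Both genes of pyruvate import had lower fitted values in AX and neither passed. Mpc1, whose product pairs with that of Mpc2 to form the carrier of the inner membrane, stood at 21.6, 5.87, 10.3, 9.84 and 27.8 CPM in NC 1 to NC 5 and 19.1, 4.80, 10.8, 12.4 and 11.2 CPM in AX 6 to AX 10. NC 5 and NC 1 were highest and AX 7 lowest, so the groups overlapped; the means were 11.7 ± 5.08 CPM over AX libraries and 15.1 ± 9.20 over NC libraries (SD, n = 5 each). Mpc2 was steadier at 15.0 to 25.9 CPM over the 10 libraries, and its log2 fold change was -0.16 ± 0.17 (SE). Mpc1 overlaps 4930506C21Rik on the opposite strand and Mpc2 overlaps Gm37860 on its own strand, and reads there cannot be assigned with certainty.

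The pyruvate dehydrogenase complex was among the steadiest groups, with a highest to lowest ratio over the 10 libraries of 1.39 for Pdha1 to 1.77 for Dlat. Pdha1, which encodes the catalytic E1 alpha subunit that kinases and phosphatases act on, stood at 114, 132, 106, 117 and 113 CPM in NC 1 to NC 5 and 104, 128, 100.1, 123 and 95.2 CPM in AX 6 to AX 10. The groups overlapped almost completely, and the log2 fold change was -0.028 ± 0.13 (SE) with an interval from -0.32 to 0.26. Pdhb, the E1 beta subunit, stood at 69.8, 48.0, 43.0, 49.1 and 54.6 CPM in NC 1 to NC 5 and 62.6, 57.6, 51.0, 57.1 and 60.2 CPM in AX 6 to AX 10. All 5 AX values lay above 3 of the NC values (NC 2, NC 3 and NC 4), but NC 1 was the highest of all. In the edgeR fit its log2 fold change was 0.20 ± 0.16 (SE), 95% interval from -0.15 to 0.54, with an unadjusted p = 0.238 and an adjusted p = 1.0, and exact two-sided permutation of the mean CPM gave p = 0.357 (n = 5 each). Pdhx, which tethers E3 to the E2 core, stood at 16.2, 13.8, 10.7, 10.4 and 12.1 CPM in NC 1 to NC 5 and 12.9, 12.9, 12.996, 15.0 and 16.4 CPM in AX 6 to AX 10. AX 10 and NC 1 were highest, and 3 AX libraries held 12.9 to 12.996 CPM. edgeR gave Pdhx a log2 fold change of 0.22 ± 0.18 (SE) with a 95% interval from -0.16 to 0.61 (unadjusted p = 0.227, adjusted p = 1.0); for the mean CPM a two-sided exact permutation p was 0.325 (n = 5 each). Dlat, the E2 acetyltransferase, stood at 24.5 to 43.4 CPM and had a log2 fold change of -0.17 ± 0.17 (SE). Dld, the E3 subunit that the oxoglutarate dehydrogenase complex also uses, stood at 133 ± 21.9 CPM over AX libraries and 134 ± 10.5 over NC libraries (SD, n = 5 each), and its fitted log2 fold change of 0.059 ± 0.18 (SE) changed sign with total-count scaling.

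The phosphatases that switch the complex on differed far more between libraries than the complex itself. Pdp1, which encodes the main phosphatase catalytic subunit, stood at 13.5, 7.60, 6.26, 7.44 and 2.43 CPM in NC 1 to NC 5 and 24.0, 12.0, 2.08, 1.63 and 1.80 CPM in AX 6 to AX 10. AX 6, NC 1 and AX 7 were high, and NC 5, AX 8, AX 9 and AX 10 were low, a 14.7-fold range; AX 9 lay over 4-fold below the median of 6.85 CPM. In the edgeR fit its log2 fold change was 0.29 ± 0.77 (SE), 95% interval from -1.41 to 1.98, with an unadjusted p = 0.717 and an adjusted p = 1.0, and exact two-sided permutation of the mean CPM gave p = 0.929 (n = 5 each). It turned to -0.72 without AX 6. Pdp2, the other catalytic subunit, stood at 0.508 to 3.04 CPM with counts of 6 to 42 per library, and its log2 fold change was -0.22 ± 0.46 (SE). Pcx, the pyruvate carboxylase that refills oxaloacetate, was the 1 member that did not pass the filter. It had 24 and 24 counts in NC 1 and AX 6, at most 17 in any other library, and 0 in AX 7, where 0 counts allow up to 0.253 CPM (3 counts, counting error only). The NC 1 and AX 6 libraries were also those highest in mesothelial and gut markers, whose part in these levels was not tested.

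**Figure D3:**
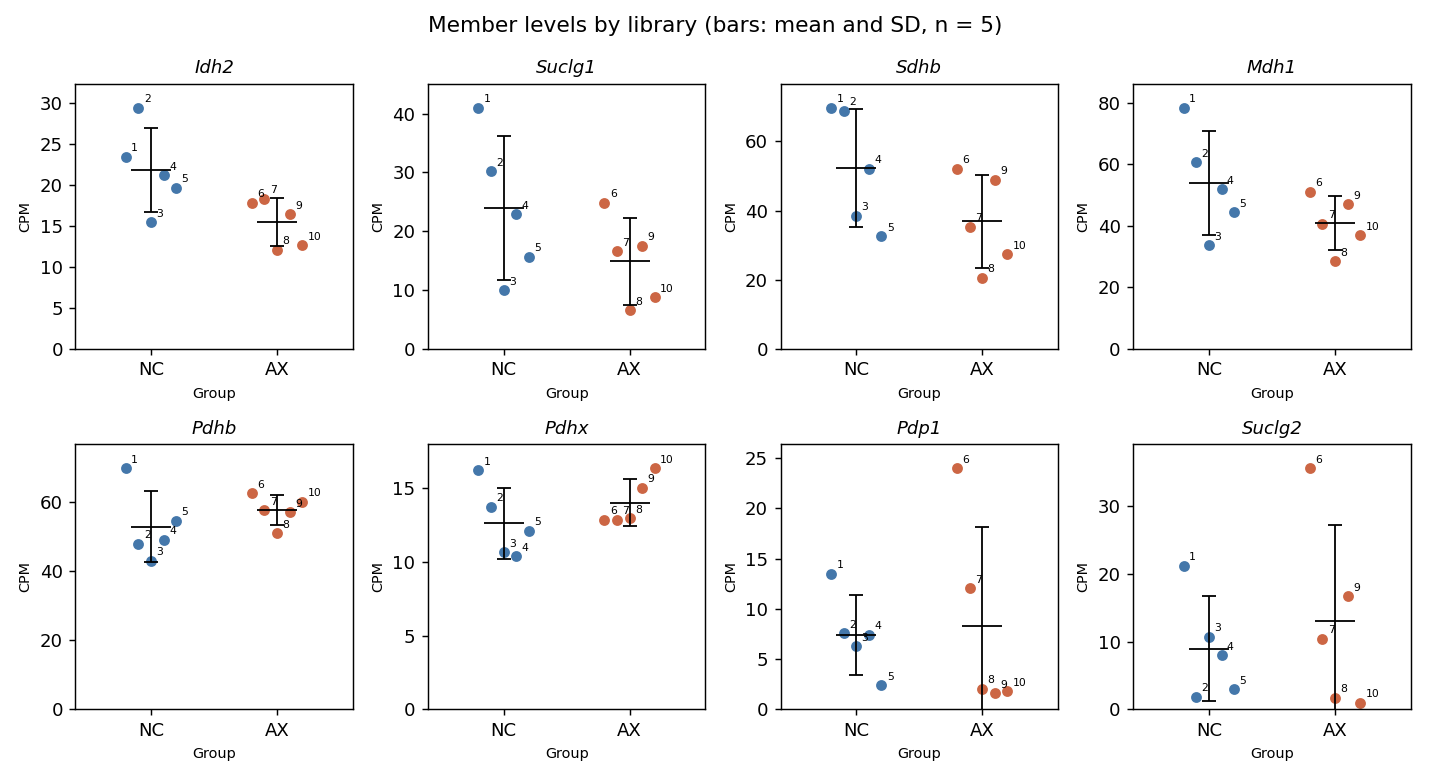
CPM of the 4 genes with the smallest p among those lower in AX (top) and among those higher in AX (bottom), by library. Points are libraries with their number, horizontal marks are means and bars are SD (n = 5 each), cut at 0 for Pdp1 and Suclg2 in AX; the groups overlap in all 8 panels, and Pdp1 and Suclg2 reach 24.0 and 35.6 CPM in AX 6.

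Citrate synthase, encoded by Cs and often used as a gauge of mitochondrial content, stood at 166, 175, 115, 153 and 134 CPM in NC 1 to NC 5 and 135, 146, 135, 154 and 109 CPM in AX 6 to AX 10. NC 2 and NC 1 were highest and AX 10 and NC 3 lowest. The groups overlapped, with means of 136 ± 16.7 CPM over AX libraries and 148 ± 24.3 over NC libraries (SD, n = 5 each), and edgeR gave a log2 fold change of -0.059 ± 0.14 (SE) and an interval from -0.37 to 0.25. Aco1, the cytosolic aconitase that also binds iron-responsive elements in mRNA, stood at 13.9 to 29.4 CPM, and its log2 fold change was -0.047 ± 0.19 (SE).

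Among the isocitrate dehydrogenases, Idh2 had the smallest p of all members. Idh2 encodes the mitochondrial NADP-dependent enzyme, which supplies NADPH for the defence against peroxides. It stood at 23.5, 29.5, 15.5, 21.2 and 19.7 CPM in NC 1 to NC 5 and 17.9, 18.4, 12.1, 16.5 and 12.7 CPM in AX 6 to AX 10. NC 3 fell among the AX values and the other 4 NC libraries lay above every AX library. edgeR gave Idh2 a log2 fold change of -0.42 ± 0.19 (SE) with a 95% interval from -0.84 to -0.0096 (unadjusted p = 0.0457, adjusted p = 1.0); for the mean CPM a two-sided exact permutation p was 0.0397 (n = 5 each). Across the 19 alternatives the log2 fold change ran from -0.52 to -0.34 and the unadjusted p from 0.0161 to 0.117, under 0.05 in 7 of them, and the smallest adjusted p was 0.9989. The gene lies at chr7:80094846-80115392 of mm10 and overlaps Gm45203 on the same strand. Its cytosolic counterpart Idh1 behaved differently in AX 6, at 39.4, 81.8, 33.7, 58.5 and 63.1 CPM in NC 1 to NC 5 and 16.2, 59.1, 36.2, 72.6 and 86.0 CPM in AX 6 to AX 10. AX 6 was lowest and AX 10 highest, and the log2 fold change was 0.0013 ± 0.38 (SE). The ratio of Idh1 to Idh2 counts within a library ran from 0.907 to 6.77 in AX and 1.68 to 3.20 in NC; the difference of the mean log2 ratios was 0.31 (exact permutation p = 0.548, adjusted p = 0.944 over 8 ratios, n = 5 each). Without AX 6 that difference was 0.74 with an exact permutation p of 0.0317 and an adjusted p of 0.190, and without AX 10 it was 0.019.

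In CPM, the 3 genes of the NAD-dependent isocitrate dehydrogenase, which runs this step of the cycle itself, were each lowest in AX 8 and highest in NC 1. CPM leaves out the TMM factors, which were 1.137 for NC 1, 0.915 for AX 6 and 0.865 for AX 8. The order of libraries can change with them. Idh3a, the catalytic subunit, stood at 45.7, 45.3, 23.0, 37.4 and 38.4 CPM in NC 1 to NC 5 and 44.4, 33.8, 19.3, 36.2 and 25.4 CPM in AX 6 to AX 10. NC 1, NC 2 and AX 6 were high, and AX 8, NC 3 and AX 10 were low. Idh3g, a regulatory subunit, was lowest in AX 8 at 6.68 CPM and highest in NC 1 at 22.01 CPM. Idh3b, the other regulatory subunit, had 14.0 CPM at its lowest, in AX 8, and 46.3 CPM at its highest, in NC 1. All 3 had a lower fitted value in AX, at -0.18 ± 0.23 (SE) for Idh3a, -0.20 ± 0.29 (SE) for Idh3b and -0.18 ± 0.33 (SE) for Idh3g, and none passed. The value was -0.018 for Idh3b and -0.038 for Idh3g without NC 1, and -0.085 for Idh3a without AX 8. Without AX 6 the 3 values were -0.38, -0.36 and -0.46. Idh3b overlaps Nop56 on the opposite strand, and whether counting used strand is unknown from the sources used here.

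Both genes of the oxoglutarate dehydrogenase complex were lowest in AX 6. Dlst, its E2 succinyltransferase, stood at 197, 239.5, 255, 269.7 and 247 CPM in NC 1 to NC 5 and 146, 261, 271, 267 and 268 CPM in AX 6 to AX 10. AX 6 was lowest and NC 1 next, and the other 4 AX libraries lay within 261 to 271 CPM. Ogdh, the E1 subunit, stood at 90.9, 135, 106, 122 and 122 CPM in NC 1 to NC 5 and 62.4, 111, 121, 111 and 122 CPM in AX 6 to AX 10, again with AX 6 lowest and NC 1 next. The log2 fold changes were 0.046 ± 0.21 (SE) for Dlst and -0.070 ± 0.21 (SE) for Ogdh, and without AX 6 they were 0.17 and 0.055.

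Succinyl-CoA ligase pairs the shared alpha subunit of Suclg1 with either the ATP-forming beta subunit of Sucla2 or the GDP-forming one of Suclg2. Sucla2 was steady at 46.5 to 65.0 CPM, and edgeR gave a log2 fold change of -0.0059 ± 0.17 (SE). Suclg2 was the most variable member, at 21.2, 1.88, 10.7, 7.998 and 2.95 CPM in NC 1 to NC 5 and 35.6, 10.4, 1.71, 16.8 and 1.02 CPM in AX 6 to AX 10. AX 6, NC 1 and AX 9 were high, and NC 2, AX 8 and AX 10 lay over 4-fold below the median of 9.22 CPM, so both groups held high and low libraries. In the edgeR fit its log2 fold change was 0.62 ± 0.89 (SE), 95% interval from -1.34 to 2.59, with an unadjusted p = 0.499 and an adjusted p = 1.0, and exact two-sided permutation of the mean CPM gave p = 0.651 (n = 5 each). It turned to -0.31 without AX 6. The ratio of Suclg2 to Sucla2 counts ran from 0.0162 to 0.759 in AX and 0.0343 to 0.379 in NC (exact permutation p = 0.944, adjusted p = 0.944, n = 5 each). Suclg1 stood at 41.0, 30.2, 9.99, 22.9 and 15.6 CPM in NC 1 to NC 5 and 24.8, 16.6, 6.498, 17.5 and 8.76 CPM in AX 6 to AX 10. NC 1 and NC 2 were highest and AX 8 and AX 10 lowest, a 6.31-fold range. edgeR gave Suclg1 a log2 fold change of -0.59 ± 0.40 (SE) with a 95% interval from -1.47 to 0.29 (unadjusted p = 0.166, adjusted p = 1.0); for the mean CPM a two-sided exact permutation p was 0.214 (n = 5 each). It was -0.92 without AX 6 and -0.36 without NC 1.

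Succinate dehydrogenase, which is also complex II of the respiratory chain, had subunit genes that differed in how they moved between libraries. Sdha encodes the flavoprotein, Sdhb the iron-sulfur subunit, and Sdhc and Sdhd the membrane anchors. Starts of transcription from RefSeq (build GRCm38.p6, the sequence called mm10) show what lies before 3 of these genes, and Sdhc had no promoter there. Whether these sequences bear on how the subunit genes moved between libraries was not tested. Each run holds 250 bases before and 50 bases after the annotated start, on the gene's strand. Capitals mark matches, on either strand, to the letters of NRF1 (GCGC, any base, TGCGC), a factor known to act on nuclear genes for mitochondrial proteins, CCGGAAG of the ETS family, TCAAGGTCA of the estrogen-related receptors, AAGATGGCG of YY1, and CCAAT of NF-Y. No marked matches overlap in these sequences.
Sdha, chr13:74350191-74350490, minus strand: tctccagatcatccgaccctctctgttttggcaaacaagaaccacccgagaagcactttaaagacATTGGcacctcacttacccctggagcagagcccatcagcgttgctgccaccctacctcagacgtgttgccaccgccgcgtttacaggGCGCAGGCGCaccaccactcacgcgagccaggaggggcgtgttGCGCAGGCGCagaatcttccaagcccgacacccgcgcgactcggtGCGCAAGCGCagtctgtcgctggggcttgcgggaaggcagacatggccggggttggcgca
Sdhb, chr4:140961021-140961320, plus strand: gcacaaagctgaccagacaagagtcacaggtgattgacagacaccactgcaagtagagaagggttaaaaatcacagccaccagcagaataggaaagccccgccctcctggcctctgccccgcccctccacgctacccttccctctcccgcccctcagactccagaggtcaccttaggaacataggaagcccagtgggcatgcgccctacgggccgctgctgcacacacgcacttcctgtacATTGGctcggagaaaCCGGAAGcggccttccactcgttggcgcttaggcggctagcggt
Sdhd, chr9:50603800-50604099, minus strand: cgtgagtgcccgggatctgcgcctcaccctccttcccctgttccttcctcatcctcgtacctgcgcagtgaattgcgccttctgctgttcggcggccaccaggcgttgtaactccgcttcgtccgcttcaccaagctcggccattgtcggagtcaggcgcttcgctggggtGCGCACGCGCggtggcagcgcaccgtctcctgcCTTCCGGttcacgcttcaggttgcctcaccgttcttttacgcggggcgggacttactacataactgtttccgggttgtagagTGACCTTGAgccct

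The Sdha window holds 3 matches to NRF1 and 1 to CCAAT. The Sdhb window holds 1 ETS match and 1 CCAAT match, and the Sdhd window holds 1 match each to NRF1, the ETS core and the estrogen-related receptors. Over all 32851 promoters of the table, 4.60% hold the NRF1 letters, 8.86% the ETS letters, 0.423% those of the estrogen-related receptors, 1.40% those of YY1 and 37.4% CCAAT. Of the 27 members with a promoter in the table, 4 hold the NRF1 letters (Dld, Sdha, Sdhd and Sucla2), 6 the ETS letters, 1 those of the estrogen-related receptors (Sdhd), 1 those of YY1 (Idh3g) and 18 CCAAT. Some genes have more than 1 promoter there, and a member was counted if any of its promoters held the letters. The shares over the table are per promoter, so the member counts are not in the same unit. A match is a run of letters only, and binding was not measured.

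Sdhb, at chr4:140961203-140979193 of mm10, stood at 69.8, 69.0, 38.5, 52.1 and 32.5 CPM in NC 1 to NC 5 and 52.1, 35.3, 20.6, 48.9 and 27.3 CPM in AX 6 to AX 10. NC 1 and NC 2 were highest and AX 8, AX 10 and NC 5 lowest, a 3.39-fold range. In the edgeR fit its log2 fold change was -0.43 ± 0.27 (SE), 95% interval from -1.02 to 0.15, with an unadjusted p = 0.131 and an adjusted p = 1.0, and exact two-sided permutation of the mean CPM gave p = 0.143 (n = 5 each). The other subunits moved within narrower limits. Sdha stood at 103, 123, 81.1, 102 and 87.6 CPM in NC 1 to NC 5 and 79.6, 93.0, 85.1, 107 and 101 CPM in AX 6 to AX 10, a 1.54-fold range. Sdhc ranged over 1.65-fold and Sdhd over 1.55-fold, both lowest in AX 6, at 86.0 and 86.0 CPM, and both highest in NC 5, at 142 and 133 CPM. Sdhc had 138 CPM in AX 8. CPM leaves out the TMM factors, 0.865 for AX 8 and 0.966 for NC 5, with which the highest library can differ. The log2 fold changes of these 3 were -0.031 ± 0.13 (SE) for Sdha, -0.069 ± 0.18 (SE) for Sdhc and -0.044 ± 0.16 (SE) for Sdhd. The ratio of Sdha to Sdhb counts in a library, which no scaling between libraries can change, ran from 1.53 to 4.13 in AX and 1.48 to 2.69 in NC. The highest ratios were those of AX 8 and AX 10, at 4.13 and 3.68, and the lowest those of NC 1 and AX 6, at 1.48 and 1.53. The difference of the mean log2 ratios was 0.44 (exact permutation p = 0.175, adjusted p = 0.698 over 8 ratios, n = 5 each). Without AX 6 it was 0.64 with an exact permutation p of 0.0476 and an adjusted p of 0.190, and without AX 8 it was 0.28. AX 8 and AX 10 also had the largest share of mitochondrially encoded counts, 18.6% and 20.1%, beside 4.47% to 15.7% in the other libraries, and the part of that share in the ratio was not tested.

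**Figure D4:**
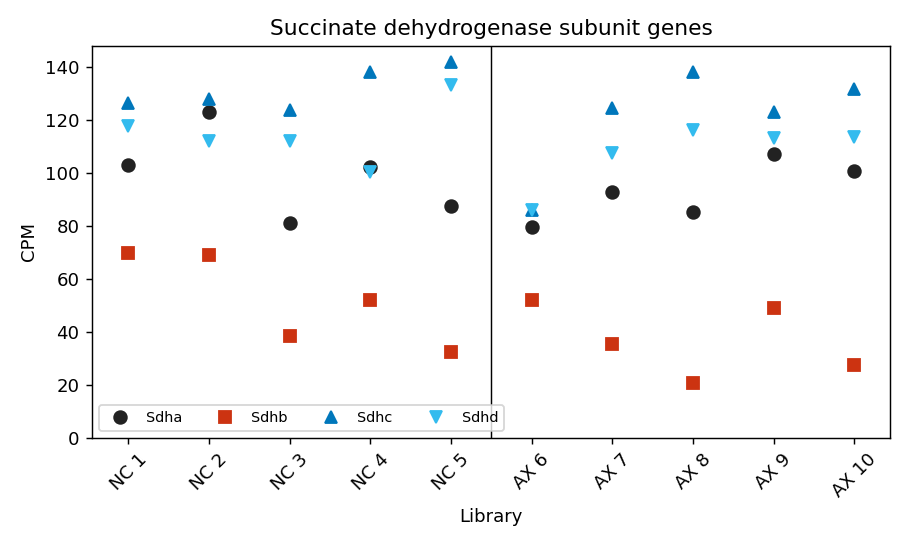
CPM of the 4 succinate dehydrogenase subunit genes in each library, NC left and AX right of the line. Sdhb is lowest in AX 8 (20.6 CPM) and highest in NC 1 (69.8 CPM), while Sdhc and Sdhd are lowest in AX 6.

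Per length, the subunits of an enzyme differed widely in level. In the authors' FPKM, which divides a count by gene length and library total, and averaged over the 10 libraries, Sdhd stood at 86.4 ± 9.46, Sdhc at 32.8 ± 4.06, Sdha at 17.5 ± 2.46 and Sdhb at 17.1 ± 6.39 (SD, n = 10). Idh3a stood at 14.5 ± 3.95, Idh3b at 5.72 ± 2.19 and Idh3g at 2.50 ± 1.0002 FPKM. Within the pyruvate dehydrogenase complex the order was Dld at 59.6, Pdhb at 37.2, Pdha1 at 27.8, Dlat at 6.18 and Pdhx at 3.11 FPKM. Dlst was highest of the 31 at 87.5 FPKM, with Sdhd next, and Pcx lowest at 0.199 FPKM. The lengths behind these values are the authors' own, from 1287 bases for Sdhd to 2608 for Sdhb and 5498 for Sdha, and a length that covers exons not used in these cells lowers the FPKM of a gene.

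Fh1 and Mdh2, genes of the last steps of the cycle, were lowest in AX 8 and AX 10. Fh1, the fumarase, stood at 19.0, 14.6, 8.72, 14.5 and 9.80 CPM in NC 1 to NC 5 and 24.0, 12.5, 5.96, 10.2 and 6.10 CPM in AX 6 to AX 10. AX 6 was highest and NC 1 next, and AX 8 and AX 10 were lowest. Its fitted log2 fold change, -0.086 ± 0.39 (SE), moved to -0.58 with AX 6 left out and to 0.074 without AX 10. Fh1 overlaps Kmo on the opposite strand. Mdh2, the mitochondrial malate dehydrogenase that closes the cycle, stood at 184, 219, 126, 161 and 138 CPM in NC 1 to NC 5 and 198, 149.7, 95.9, 152 and 77.5 CPM in AX 6 to AX 10. NC 2, AX 6 and NC 1 were high, and AX 10 and AX 8 were low. The log2 fold change was -0.23 ± 0.24 (SE), and -0.45 without AX 6 but -0.085 without AX 10. Mdh1, the cytosolic enzyme of the malate-aspartate shuttle, stood at 78.5, 60.7, 33.7, 51.9 and 44.4 CPM in NC 1 to NC 5 and 51.1, 40.7, 28.5, 47.1 and 36.9 CPM in AX 6 to AX 10. NC 1 was highest and AX 8 lowest. edgeR gave Mdh1 a log2 fold change of -0.32 ± 0.21 (SE) with a 95% interval from -0.77 to 0.14 (unadjusted p = 0.151, adjusted p = 1.0); for the mean CPM a two-sided exact permutation p was 0.175 (n = 5 each). Its log2 fold change was -0.19 without NC 1.

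Leaving AX 6 out brought 5 members under an unadjusted p of 0.05 with edgeR, all lower in AX: Idh2, Sdhb, Suclg1, Mdh1 and Mdh2, at log2 fold changes of -0.52, -0.64, -0.92, -0.45 and -0.45. None passed after adjustment (adjusted p = 1.0), and 3.07% of the 12395 genes tested lay under that level in the same fit. Without AX 6 and NC 1 together, 1 member lay under it, Idh2, beside 2.62% of all genes.

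Malic enzyme and the citrate carrier lead out of the cycle. Me2, the mitochondrial malic enzyme, stood at 74.7, 90.3, 58.7, 112 and 55.6 CPM in NC 1 to NC 5 and 56.3, 74.5, 80.4, 72.0 and 74.8 CPM in AX 6 to AX 10. NC 4 was highest and NC 5 lowest, so a single group held both ends of the range, and the log2 fold change was -0.058 ± 0.21 (SE). Slc25a1, which exports citrate for lipid synthesis, stood at 71.1, 61.9, 66.5, 84.0 and 66.0 CPM in NC 1 to NC 5 and 39.6, 67.8, 89.9, 63.1 and 59.2 CPM in AX 6 to AX 10. AX 8 was highest and AX 6 lowest, and the log2 fold change of -0.066 ± 0.23 (SE) was 0.051 without AX 6 and -0.29 without AX 8.

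In CPM, which is scaled to total counts alone, AX 8 was most often the lowest library for the members. AX 8 was lowest for 11 of the 30 tested genes, 36.7% beside 20.8% of all genes tested: Dlat, Dld, Aco1, Idh2, Idh3a, Idh3b, Idh3g, Suclg1, Sdhb, Fh1 and Mdh1. AX 6 was lowest for 7, 23.3% beside 28.4% of all genes: Idh1, Ogdh, Dlst, Sdha, Sdhc, Sdhd and Slc25a1. NC 1 and NC 2 were highest for 9 and 8 of the 30, 30.0% and 26.7%, beside 17.8% and 17.9% of all genes. The TMM factors, which CPM leaves out, were lowest for AX 8 (0.865), NC 3 (0.911) and AX 6 (0.915). They were highest for NC 1 (1.137), NC 2 (1.132) and AX 9 (1.131). Their part in these shares was not tested. These shares are descriptions of the 10 libraries and were not tested.

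Pairs that act in the same enzyme or step were compared over the 10 libraries, on log2 CPM with TMM scaling. There were 12 pairs, adjusted together, and all pairs share the libraries and their scaling. Pairs drawn from all genes were not compared. Whether these pairs move together more than other genes do was therefore not tested. Ogdh and Dlst gave Pearson's r = 0.92 (permutation p = 7.50e-04, adjusted p = 0.00900) and Spearman's rho = 0.81 (permutation p = 0.00747, adjusted p = 0.0299). Without AX 6 and NC 1, the libraries farthest from the median of Ogdh, r was 0.62. Sdhc and Sdhd gave Pearson's r = 0.85 (permutation p = 0.00167, adjusted p = 0.0100) and Spearman's rho = 0.78 (permutation p = 0.0103, adjusted p = 0.0308), with r = 0.76 without AX 6 and AX 8. Idh3a and Idh3g gave Pearson's r = 0.83 (permutation p = 0.00441, adjusted p = 0.0176) and Spearman's rho = 0.82 (permutation p = 0.00588, adjusted p = 0.0299), with r = 0.73 without AX 8 and NC 3. For Mdh1 and Mdh2, and for Idh3a and Idh3b, rho passed (adjusted permutation p = 0.0299 and 0.0482) and r did not (0.0528 and 0.0631). Without the 2 farthest libraries, r was 0.78 for the Mdh pair and 0.46 for the Idh3 pair.

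Sdhb ran against the anchor genes of its own enzyme, but how strongly depended on the scaling. Sdhb and Sdhd gave Pearson's r = -0.74 (permutation p = 0.0160, adjusted p = 0.0480) and Spearman's rho = -0.70 (permutation p = 0.0307, adjusted p = 0.0527). Sdhb and Sdhc gave Pearson's r = -0.69 (permutation p = 0.0283, adjusted p = 0.0566) and Spearman's rho = -0.72 (permutation p = 0.0241, adjusted p = 0.0482). Without AX 8 and AX 10, r was -0.63 for Sdhd and -0.51 for Sdhc. With scaling to total counts in place of TMM, r was -0.30 for Sdhb and Sdhd and -0.33 for Sdhb and Sdhc. Between Sdha and Sdhb r was -0.010 (permutation p = 0.977), and 0.52 with total counts. The positive pairs above kept r between 0.78 and 0.91 with total counts. The other 4 pairs, Suclg1 with Suclg2, Suclg1 with Sucla2, Pdha1 with Pdhb and Mpc1 with Mpc2, did not pass (adjusted permutation p of r from 0.181 to 0.472). The pairs were chosen by shared enzyme or step, with earlier results of these data known.

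None of the 8 ratios between members passed the test of AX against NC (adjusted p from 0.698 to 0.944, exact two-sided permutation, n = 5 each, where the smallest p possible is 0.00794). Besides the ratios given above, Mdh1 to Mdh2 ran from 0.258 to 0.476 in AX and 0.269 to 0.427 in NC. Idh3a to Idh2 ran from 1.59 to 2.48 in AX and 1.49 to 1.95 in NC, with a difference of the mean log2 ratios of 0.21. Mpc1 to Mpc2 ran from 0.322 to 0.980 in AX and 0.228 to 1.48 in NC, and Pdp1 to Pdha1 from 0.0135 to 0.231 in AX and 0.0218 to 0.119 in NC. The ratio of Pcx to Pdha1 stayed at or below 0.0211 in all 10 libraries.

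Other genes that feed, regulate or drain the cycle showed no called difference either. Of 35 such genes, 29 passed the filter, 18 with a lower and 11 with a higher fitted value in AX, and 0 passed with edgeR, with 0 at an unadjusted p under 0.05. Their median log2 fold change was -0.023. The pyruvate dehydrogenase kinases, which switch the complex off, are Pdk1 to Pdk4. Pdk1 stood at 50.1, 81.5, 41.3, 92.9 and 32.2 CPM in NC 1 to NC 5 and 21.04, 50.5, 52.6, 65.4 and 92.7 CPM in AX 6 to AX 10. AX 6 and NC 5 were lowest and NC 4 and AX 10 highest. Pdk3 was steady at 20.2 to 34.8 CPM, and Pdk2 and Pdk4 stayed at or below 5.60 and 7.14 CPM. All 4 kinases had a fitted value below 0, from -0.57 to -0.019, and none passed.

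Acod1, listed under its older symbol Irg1 and matched by its Ensembl identifier, diverts aconitate to itaconate and averaged 649.7 ± 179 FPKM (SD, n = 10), above each of the 31 genes. Acod1 stood at 1767, 1924, 2145, 2330.4 and 1219 CPM in NC 1 to NC 5 and 1605, 1843, 1068, 2134 and 1007 CPM in AX 6 to AX 10. AX 10, AX 8 and NC 5 were lowest, and the log2 fold change was -0.27 ± 0.25 (SE). Acly, which splits exported citrate, stood at 113 ± 33.6 CPM over AX libraries and 120.3 ± 27.8 over NC libraries (SD, n = 5 each), and its log2 fold change was -0.050 ± 0.19 (SE). By smallest p, Slc25a11, the oxoglutarate carrier, led the genes with lower values, followed by Acod1 and Pdk2, which tie at this precision (unadjusted p = 0.248, 0.309 and 0.309 with edgeR, adjusted p = 1.0). Nnt, the NADPH-forming transhydrogenase, and Lipt2, an octanoyltransferase of lipoic acid synthesis, led those with higher values (unadjusted p = 0.174 and 0.367 with edgeR, adjusted p = 1.0). Nnt stood at 11.04 ± 4.84 CPM over AX libraries and 7.31 ± 3.53 over NC libraries (SD, n = 5 each), and Lipt2 at 1.34 ± 0.486 CPM over AX libraries and 1.10 ± 0.526 over NC libraries (SD, n = 5 each), and the groups overlapped for both.

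Neighbouring pathways are given for scale. Of 36 nuclear genes of complex I, 30 were lower in fitted value in AX and 6 higher; their median log2 fold change was -0.19. Of 17 glycolysis genes, 9 were lower and 8 higher, with a median of -0.081. Of the 13 mitochondrially encoded genes, 1 was lower and 12 higher, with a median of 0.45. In each of these lists 0 genes passed with edgeR; 1 gene of complex I, 0 of glycolysis and 1 mitochondrially encoded gene lay under an unadjusted p of 0.05. All of these values share the same 10 libraries, and differences between the lists were not tested.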

How the data were processed

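Polyadenylated RNA of 10 samples was sequenced, 5 labelled AX and 5 labelled NC, per the labels. Reads were aligned with HISAT2 2.0.4 to mm10, according to the submitters' processing notes. The sources used here do not give the counting tool, its annotation or any use of strand. The deposited counts are whole numbers per gene and were not normalised. The deposited FPKM equal the count per length and per total count, to within a relative gap of 1.69e-05 in each of 7639 genes, and were used to compare subunits per length and in 1 alternative. No pair of libraries was a repeat of the same counts (chi-square of at least 41.8 per degree of freedom).

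Counts were fitted in R 4.3.3 with edgeR 4.0.16: filterByExpr by group, TMM scaling, and its quasi-likelihood F test, two-sided, with no covariate, on the whole table, with Benjamini-Hochberg adjustment over 12264 genes and a threshold of 0.05. Each SE is the size of the log2 fold change over the root of F. Single levels and 8 ratios (pseudocount 0.5) were compared by exact two-sided permutation, and 12 pairs by 100000 permutations, in Python 3.11.15 with scipy 1.17.1; matplotlib 3.10.9 drew the plots. Alternatives used DESeq2 1.42.0, limma 3.58.1, other scalings and filters, and each library left out. Full statistics go to the 4 members with the smallest p in each direction; per-library values go to these, to 15 members representing each step and to members with a library 4-fold from a median of at least 5 CPM. Members, lists, pairs, ratios and motifs were chosen with earlier results of these data known. One gene of the wider pathway list is not reported here. Gene coordinates follow the deposited table (mm10, counted from 1), and overlaps come from GENCODE M21. Of the 31 members, 27 had a promoter in the RefSeq table; Me2, Idh3a, Sdhc and Pdp1 did not.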

Additional observations from a re-analysis of the deposited data

Results flagged for a closer look

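In 4 of the 62 gene and group combinations of the 31 genes, 1 library lay far from the other 4 of its group by a test of the gap to the nearest value. All 4 concern AX 6, as the lowest AX library. Ogdh stood at 62.4 CPM in AX 6 and at 111 to 122 CPM in the other AX libraries. Dlst stood at 146 CPM in AX 6 and at 261 to 271 CPM in the other AX libraries. Sdhc stood at 86.0 CPM in AX 6 and at 123 to 138 CPM in the other AX libraries. Sdhd stood at 86.0 CPM in AX 6 and at 108 to 116 CPM in the other AX libraries. For independent and normally distributed values about 1 in 20 groups would show such a gap. The 4 of 62 cannot be judged by that rate, because CPM values need not be normal and the genes share the libraries. The 4 are not independent, since they come from the same library. The share of such gaps over all genes was not computed. AX 6 was the lowest of the 10 libraries for 28.4% of all genes tested. AX 6 also had the highest summed mesothelial and stromal markers, at 2358 and 2670.2 CPM, and their part in the 4 low values was not tested.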

How the results depend on the processing

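No member was called under any of the 19 alternatives, and the count of members with a lower value ran from 21 to 25 over them, of 28 to 31 members tested. The median log2 fold change of the members ran from -0.14 to -0.048, below 0 throughout. It moved by less than the SD between single libraries of the median member deviation, 0.11 on the log2 scale. That SD is not the error of a difference between group means, so it does not show that the processing mattered little. Genes called over the whole table were 0 under all alternatives but DESeq2 (1) and the fit without NC 3 (1), so leaving out single libraries gave 0 to 1. The log2 fold change of a few members, none of them called, changed sign: Dld to -0.0030 and Idh1 to -0.035 with total counts, Pdp1 to -0.51 and Idh1 to -0.12 with limma-voom, Pdp1 to -0.61 and Dld to -0.050 with limma-voom and quality weights, Dlst to -0.024 and Dld to -0.013 and Idh1 to -0.14 on log2(FPKM + 1), Sucla2 to 0.011 without a filter, Sucla2 to 0.0031 with at least 50 counts in 5 libraries, Slc25a1 to 0.021 and Pdp1 to -0.46 and Dld to -0.084 without AX 6 and NC 1 together, chosen after seeing the data. Leaving out each library in turn changed the sign of the log2 fold change for Fh1 (-0.58 to 0.074), Dlst (-0.053 to 0.17), Idh1 (-0.26 to 0.22), Aco1 (-0.13 to 0.066), Pdp2 (-0.56 to 0.14), Sdha (-0.069 to 0.013), Dld (-0.076 to 0.13), Slc25a1 (-0.29 to 0.051), Me2 (-0.16 to 0.12), Sucla2 (-0.10 to 0.075), Sdhd (-0.13 to 0.037), Mpc1 (-0.58 to 0.086), Sdhc (-0.18 to 0.014), Suclg2 (-0.31 to 1.12), Pdp1 (-0.72 to 0.56), Ogdh (-0.18 to 0.055), Pdha1 (-0.071 to 0.013), Cs (-0.11 to 0.0041). The same happened to the log2 ratio difference of Suclg2/Sucla2 (-0.55 to 0.84), Mdh1/Mdh2 (-0.17 to 0.087), Pcx/Pdha1 (-1.10 to 0.36), Mpc1/Mpc2 (-0.40 to 0.27). The cause of these sign changes was not tested. With a pseudocount of 0.1 in place of 0.5 the 8 ratio differences kept their sign. No paired analysis was possible because the groups share no replicate number. Depth limited Pcx and Pdp2 most: Pcx had 0 to 24 counts per library.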
